A study of Drosophila melanogaster with 3 samples.

Results

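The 433 peaks described here lie at the start sites of long noncoding RNA (lncRNA) and antisense RNA (asRNA) genes, away from those of protein-coding genes. They were taken from the authors' list of 30000 peaks called on the pooled libraries. The rule asked for a summit within 250 bp of a transcription start site (TSS) of a gene whose symbol begins with lncRNA: or asRNA:, and over 250 bp from every protein-coding TSS. The nearest such TSS belonged to a lncRNA gene for 371 peaks and to an asRNA gene for 62. Of the 433, 121 were also in the authors' list thresholded by irreproducible discovery rate (IDR), a procedure that scores how ranks recur between replicates. That list is exactly the strongest pooled peaks by signal, so a peak on it need not recur in each replicate. No binding value entered the rule, although every peak had to be on the pooled list.

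The study mapped D19A, a C2H2 zinc finger protein, in Drosophila melanogaster by chromatin immunoprecipitation and sequencing (ChIP-seq). Its single group was whole embryos of 0 to 20 h, male and female pooled, from a transgenic line that stably expresses D19A fused at its C-terminus to GFP (D19A-eGFP), and 3 biological replicates were made. The precipitating antibody was against GFP per the sample description, while the antibody field names D19A, and the promoter that drives the transgene is not given in the sources used here. All 3 replicates share 1 control file and no embryos without the tag were compared, so the comparisons below are between classes of peaks within each replicate. An embryo collection of this span mixes tissues and stages, and a weak peak in all cells cannot be told apart from a strong peak in few cells.

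Zinc finger proteins of this kind bind DNA through arrays of C2H2 fingers, and the ZAD family, to which D19A belongs, is large in insects and includes insulator and architectural proteins. RNA polymerase II transcribes lncRNA and asRNA genes from promoters of their own or from promoters shared head to head with a protein-coding gene. Well-known fly lncRNAs include roX1 and roX2 of the dosage compensation complex on the male X chromosome, Hsromega, which forms nuclear speckles and is induced by heat shock, and flam, the source of piRNAs that silence retrotransposons in the somatic cells of the ovary.

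Sequence at the summit is shown for 9 of the peaks, chosen to span pooled ranks 19 to 19304. They are 5 of the 6 strongest, then Hsromega, flam, roX1 and iab4. Each spans 50 bp to either side of the pooled summit, read 5′ to 3′ on the strand of the RNA from the RefSeq assembly Release 6 plus ISO1 MT, whose arms are those of dm6. Capitals mark every run of at least 6 bases that are all A or T. The coordinates are chrX:3546302-3546402 for CR34335, chr3R:4395285-4395385 for asRNA:CR45999, chr3R:29214386-29214486 for CR31044, chr3R:17700529-17700629 for CR46036, chr3R:23333828-23333928 for CR46090, chr3R:21296288-21296388 for Hsromega, chrX:21631690-21631790 for flam, chrX:3862678-3862778 for roX1 and chr3R:16850100-16850200 for iab4, on the minus strand for CR34335, CR46090 and roX1 and on the plus strand for the others.
CR34335: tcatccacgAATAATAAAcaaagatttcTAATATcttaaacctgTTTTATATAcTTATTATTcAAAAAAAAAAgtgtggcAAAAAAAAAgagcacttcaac
asRNA:CR45999: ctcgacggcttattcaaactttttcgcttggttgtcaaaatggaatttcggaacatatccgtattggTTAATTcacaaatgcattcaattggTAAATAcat
CR31044: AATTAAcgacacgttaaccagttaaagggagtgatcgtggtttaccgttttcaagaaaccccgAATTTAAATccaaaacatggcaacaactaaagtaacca
CR46036: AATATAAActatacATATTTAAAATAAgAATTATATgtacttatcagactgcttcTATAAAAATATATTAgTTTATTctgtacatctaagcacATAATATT
CR46090: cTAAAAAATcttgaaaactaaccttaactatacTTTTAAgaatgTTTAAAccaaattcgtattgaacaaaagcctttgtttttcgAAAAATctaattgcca
Hsromega: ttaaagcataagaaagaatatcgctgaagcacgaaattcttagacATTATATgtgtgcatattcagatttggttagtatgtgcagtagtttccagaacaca
flam: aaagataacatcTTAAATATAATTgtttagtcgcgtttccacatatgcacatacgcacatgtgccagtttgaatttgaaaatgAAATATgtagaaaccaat
roX1: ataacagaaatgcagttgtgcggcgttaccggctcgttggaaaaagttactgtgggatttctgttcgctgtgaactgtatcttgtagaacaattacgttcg
iab4: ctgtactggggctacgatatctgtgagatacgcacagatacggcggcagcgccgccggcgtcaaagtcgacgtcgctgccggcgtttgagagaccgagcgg

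A/T runs varied widely among the strongest of these windows, and roX1 and iab4, the weakest shown, held none. CR34335, at rank 19 of the pooled list, had 6 runs that covered 51 bases, and CR46036, at rank 219, had 6 runs that covered 58, the longest of 15 bases. asRNA:CR45999, at rank 82, had 2 runs of 6 bases, and CR31044, at rank 180, had 2 runs that covered 15 bases. The flam window had 2 runs that covered 18 bases, Hsromega had 1 run of 7 bases, and neither roX1 nor iab4 had any. The iab4 window, at rank 19304, was 36.6% A or T, against 75.2% at CR34335. Weak summits not shown varied as well. The share was 75.2% at the flam summit of rank 21304 and 73.3% at sphinx (rank 20937), but 46.5% at iab8 (rank 26448). These windows were picked and show no trend with rank by themselves.

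Peaks were compared by rank, with rank 1 for the highest of the signal values that the authors deposited in a list of 30000. In a replicate, a pooled peak took the rank of the strongest replicate peak that shares at least 1 bp with it. The strongest of the 433 was at lncRNA:CR34335 (FBgn0267910, chrX:3546017-3546711 in dm6), whose TSS lies inside DIP-alpha on the same strand, DIP-alpha being a cell surface immunoglobulin protein of synaptic partner recognition. Its summit stood 242 bp upstream of the TSS, in an intron of DIP-alpha, at rank 19 of the pooled list and ranks 21, 20 and 20 of replicates 1, 2 and 3. Second was asRNA:CR45999 (FBgn0267661, chr3R:4395034-4395620), outside protein-coding genes and 1076 bp from the TSS of CG34112, at pooled rank 82 and replicate ranks 82, 89 and 86. Both kept nearly the same place in every list.

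The next 5 peaks had a wider spread of ranks. lncRNA:CR44339 (FBgn0265427, chr2R:12984954-12985441), 4213 bp from the TSS of Psc, which encodes a Polycomb repressive complex subunit, had pooled rank 143 and replicate ranks 169, 104 and 196. lncRNA:CR31044 (FBgn0051044, chr3R:29214167-29214654) had pooled rank 180 and replicate ranks 206, 134 and 313. The annotated CR31044 gene contains the microRNA genes mir-279 and mir-996 on its own strand. lncRNA:CR46036 (FBgn0267703, chr3R:17700339-17700829), antisense inside osa, which encodes a chromatin remodelling subunit, had pooled rank 219 and replicate ranks 296, 158 and 344. lncRNA:CR46090 (FBgn0267759, chr3R:23333544-23334227), inside the ETS factor gene pnt on the same strand, had pooled rank 261 and replicate ranks 220, 354 and 218. lncRNA:CR43717 (FBgn0263870, chr2L:439223-439755), inside the Hippo pathway gene ex, had pooled rank 291 and replicate ranks 243, 419 and 216. For each of these 5, the highest and lowest replicate ranks differed, yet all 3 were within the strongest 500 of 30000.

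Of the 5 that follow, none had all 3 replicate ranks within 500. lncRNA:CR45248 (FBgn0266783, chr3L:10958807-10959414), 13551 bp from the nearest protein-coding TSS, had pooled rank 464 and replicate ranks 398, 824 and 318. lncRNA:CR43928 (FBgn0264549, chr2L:3475887-3476391), 2272 bp from the TSS of Thor, the translation inhibitor 4E-BP, had pooled rank 492 and replicate ranks 470, 743 and 353. lncRNA:CR44728 (FBgn0265941, chr2L:14234943-14235460), 1027 bp from the kinase gene Dyrk2, had pooled rank 518 and replicate ranks 457, 722 and 443. Replicate 2 placed each of these 3 below replicates 1 and 3. lncRNA:CR45639 (FBgn0267199, chr3R:16208743-16209462), 3760 bp from mtSSB, had pooled rank 618 and replicate ranks 767, 853 and 402, and asRNA:CR45802 (FBgn0267452, chr3L:2118039-2118569), antisense inside the muscle gene zormin, had pooled rank 635 and replicate ranks 560, 959 and 444. All 12 summits were upstream of their TSS, by 29 to 242 bp, and 10 of the 12 lay outside annotated exons of noncoding genes.

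**Figure D1:**
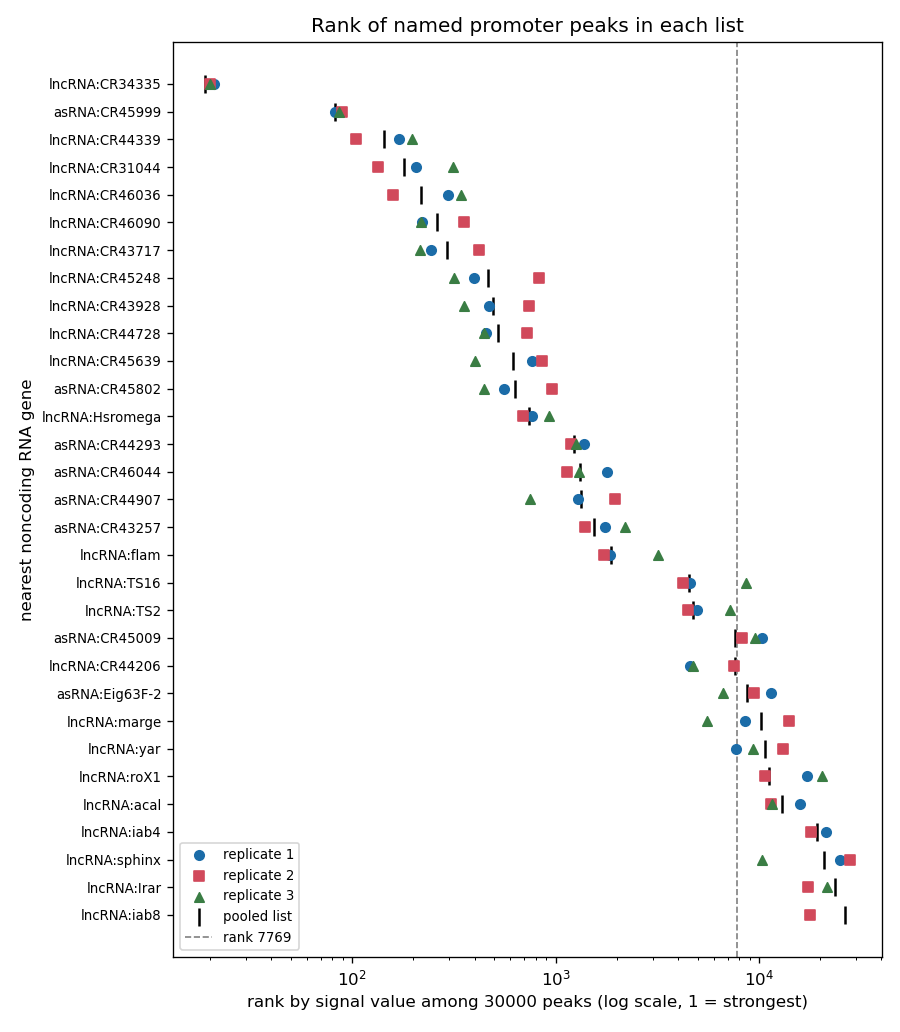
Rank by signal value of named lncRNA and asRNA promoter peaks in the pooled list (black bar) and in replicates 1, 2 and 3 (circle, square, triangle), on a log axis where 1 is the strongest of 30000 peaks; genes with several peaks are shown by their strongest, and a missing symbol means no overlapping replicate peak. The strongest peaks hold their place (CR34335 at 21, 20 and 20), while iab8, at pooled rank 26448, was found in replicate 2 alone.

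Besides asRNA:CR45999 and asRNA:CR45802, the strongest asRNA promoter peaks lay within 500 bp of the start of a protein-coding gene in 3 of 4 cases. asRNA:CR44293 (chr2R:9860864-9861288) lies 311 bp from the start of PCB, the pyruvate carboxylase gene, and its pooled rank was 1232, with replicate ranks of 1373, 1188 and 1259. asRNA:CR46044 (chr3R:20587730-20588045), 487 bp from the start of the septin gene Septin2, had pooled rank 1324 and replicate ranks 1797, 1144 and 1302. asRNA:CR43257 (chr2R:24793518-24793836), 266 bp from the start of Reg-5, had pooled rank 1541 and replicate ranks 1756, 1401 and 2197. asRNA:CR44907 (chr2L:20069296-20069862), antisense inside the ceramidase gene bwa and 2631 bp from the nearest protein-coding TSS, had pooled rank 1326 and replicate ranks 1285, 1950 and 750. All 4 were on the IDR list. Peaks of this kind can overlap the peak of the neighbouring protein-coding promoter.

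Among lncRNAs with names rather than CR numbers, Hsromega and flam held the strongest peaks. The Hsromega peak (FBgn0001234, chr3R:21296117-21296536) had its summit 211 bp downstream of the TSS, at pooled rank 744 and replicate ranks 764, 691 and 932. A second Hsromega summit, 78 bp upstream of another annotated start, was at pooled rank 20784 and was overlapped in replicate 1 at rank 23786, in replicate 2 by the same strong peak as the first, and in replicate 3 by none. The flam peak (FBgn0267704, chrX:21631594-21631866) stood 151 bp upstream of the TSS, at pooled rank 1863 and replicate ranks 1860, 1725 and 3188, and 2 further summits at downstream flam start sites had pooled ranks 19349 and 21304. At both loci 1 summit was on the IDR list and the others were not. TS16 and TS2 were also on it, TS16 at pooled rank 4528 with replicate ranks 4560, 4238 and 8638, and TS2 at pooled rank 4718 with replicate ranks 4938, 4482 and 7186.

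The other named RNAs were not on the IDR list, and their replicate ranks by overlap ran from 5577 to 27940. roX1 (FBgn0019661, chrX:3862506-3862949), with a summit 31 bp upstream of a TSS, was at pooled rank 11224 and replicate ranks 17236, 10658 and 20326. yar, a regulator of sleep transcribed next to yellow, was at pooled rank 10650 and replicate ranks 7728, 13084 and 9307, and acal, which acts on JNK signalling in dorsal closure, was at pooled rank 12925 and replicate ranks 15955, 11423 and 11604. asRNA:Eig63F-2 had pooled rank 8687 and replicate ranks 11508, 9413 and 6681, and marge had pooled rank 10190 and replicate ranks 8561, 13969 and 5577. Each of these 5 was overlapped in all 3 replicates. With summits matched within 100 bp, marge had no peak in replicate 3, yar ranked 18862 there and acal ranked 20197 in replicate 2. The ranks of roX1 and asRNA:Eig63F-2 were the same by either matching. In the bithorax complex, iab4, a host of a Hox-targeting microRNA, was at pooled rank 19304 with ranks 21383 and 18029 in replicates 1 and 2 and no peak in replicate 3, and iab8 was at pooled rank 26448 with rank 17724 in replicate 2 alone. sphinx, which acts in male courtship, was at pooled rank 20937 with replicate ranks 24930, 27940 and 10353, and Irar, antisense inside the insulin receptor gene InR, was at pooled rank 23559 with ranks 17504 and 21663 in replicates 2 and 3 and no peak in replicate 1.

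Of a list of 20 lncRNA names known from the fly literature, 15 were found in the annotation by symbol. Of these, 7 had a peak by the rule (roX1, Hsromega, iab8, flam, acal, yar and sphinx) and 2 had one on the IDR list (Hsromega and flam). Of all 2447 lncRNA and asRNA genes, 19.1% had a pooled summit within 250 bp of a TSS and 6.25% had one on the IDR list. Several of the 7 have many annotated starts, 8 for iab8 and 3 each for roX1, flam and yar, against 1.07 a gene. That gives them more places for a summit, and the comparison was not tested. The nearest pooled summit to a TSS of roX2 was 451 bp away at rank 21364, and that to bxd of the bithorax complex was 1396 bp away at rank 2558. For let7C, noe, CRG, Vinr, TS14 and cherub it lay 418 to 11926 bp away.

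Several of the lncRNA genes are hosts of microRNAs, which are cut from the longer transcript. Of 37 lncRNA or asRNA genes that contain a microRNA gene on their strand, 21 (56.8%) had a pooled summit within 250 bp of a TSS, against 468 of 2447 (19.1%) of all lncRNA and asRNA genes, a comparison made after the data were seen and not tested. These hosts carried 31 of the 433 peaks, 7 of them (22.6%) on the IDR list, against 27.9% of the 433 and 25.9% of all pooled peaks, so the hosts' peaks were not more often on it. Besides CR31044 and Hsromega, the IDR peaks were at CR43334, which contains the growth-promoting bantam microRNA (pooled rank 3551, replicate ranks 2308, 5147 and 3563), CR43651 with mir-14 (pooled rank 3602, replicate ranks 2963, 4177 and 3546) and CR43650 with mir-8 (pooled rank 3926, replicate ranks 4147, 3152 and 6345). CR46006 with mir-276a (pooled rank 6494) and CR44206 with mir-184 (pooled rank 7643) completed them. At CR43650 replicate 3 had no summit within 100 bp of the pooled one, and at CR44206 replicate 1 had none. The peaks at the hosts of the muscle microRNA mir-1, the neural mir-124 and mir-9a were weaker, at best pooled ranks of 14564, 22470 and 18951. Summits at these hosts were not all A/T-rich: the windows at the IDR summits of CR43334, CR43651 and CR43650 were 48.5%, 52.5% and 30.7% A or T.

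At the lower edge of the IDR list was asRNA:CR45009, with pooled rank 7620 and replicate ranks 10389, 8222 and 9583. CR44206 was there too, with replicate ranks by overlap of 4588, 7566 and 4714. With summits matched within 100 bp, CR44206 had no peak in replicate 1 and ranks 18703 and 4714 in replicates 2 and 3. The first of the 433 outside it were at CR43148 and CR43459, at pooled ranks 7774 and 7924. At the edge of the 250 bp limit, the summits of CR45401 and a second summit of CR43459 lay exactly 250 bp from their TSS, at pooled ranks 12943 and 13374. Just outside it were a summit 1 bp beyond the limit at CR44677, at pooled rank 4754 and on the IDR list, and a summit 252 bp from CR46196, at pooled rank 12386.

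Of the 433 peaks at lncRNA and asRNA promoters, 121 were on the IDR list, or 27.9% (95% Wilson interval 23.9 to 32.4%, which covers the counting of peaks only), against 1849 of 4979 protein-coding promoter peaks (37.1%) and 25.9% of all pooled peaks. The share was thus near that of all pooled peaks and below that of protein-coding promoters. By RNA class it was 104 of 371 at lncRNA promoters and 17 of 62 (27.4%) at asRNA promoters. Under a stricter threshold, the strongest pooled peaks up to 0.25 of the length of the IDR list, there were 33 of the 433 (7.62%), against 494 protein-coding promoter peaks (9.92%) and 6.47% of all pooled peaks. The median pooled rank was 14330 at lncRNA and asRNA promoters (quartiles 6494 and 22515), 10538 at protein-coding promoters and 16574 at peaks over 1000 bp from every TSS. The IDR list is exactly the strongest pooled peaks by signal, so its share and the pooled ranks are 1 measure and not independent.

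The order against protein-coding promoters was the same in each replicate. Peaks at lncRNA and asRNA promoters had a median rank of 9754, 10706.5 and 8985 in replicates 1, 2 and 3, against 8380, 7802 and 8007 for protein-coding promoter peaks, over those with an overlapping replicate peak. That is 9815 ± 862 at lncRNA and asRNA promoters and 8063 ± 293 at protein-coding promoters (SD, n = 3), a difference of 1752 ± 1017 ranks (exact 2-sided sign-flip permutation test over replicates, p = 0.25, and 0.35 after Benjamini-Hochberg adjustment over 7 such tests). Strong replicate peaks were next defined as the highest in signal of a replicate, as many as the IDR list is long. They overlapped 36.7%, 33.9% and 37.2% of the lncRNA and asRNA promoter peaks, against 42.7%, 47.6% and 41.5% of protein-coding promoter peaks. The difference, lower at lncRNA and asRNA promoters in 3 of 3 replicates, was -7.99 ± 4.94 percentage points (exact sign-flip permutation test, p = 0.25, adjusted p = 0.35). With 3 replicates this test cannot give a p below 0.25, so no comparison here can pass the usual threshold. Peaks over 1000 bp from every TSS were at 26.3 ± 0.747% and all pooled peaks at 31.6 ± 0.400% (SD, n = 3). Both were below lncRNA and asRNA promoters in every replicate. Of the 433, the 332 over 1000 bp from every protein-coding TSS were at 33.1%, 30.4% and 33.4% in replicates 1, 2 and 3. All pooled peaks were at 31.9%, 31.7% and 31.1%, so for these 332 the order turned in replicate 2. Replicate 2 carried much of the difference from protein-coding promoters: without it the difference was -5.19 points. With a window of 100 bp around the TSS (196 peaks) it was -4.07 points and no longer of 1 sign in all 3 replicates (exact sign-flip permutation test, p = 0.5), and the difference in median rank was 1028.

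**Figure D2:**
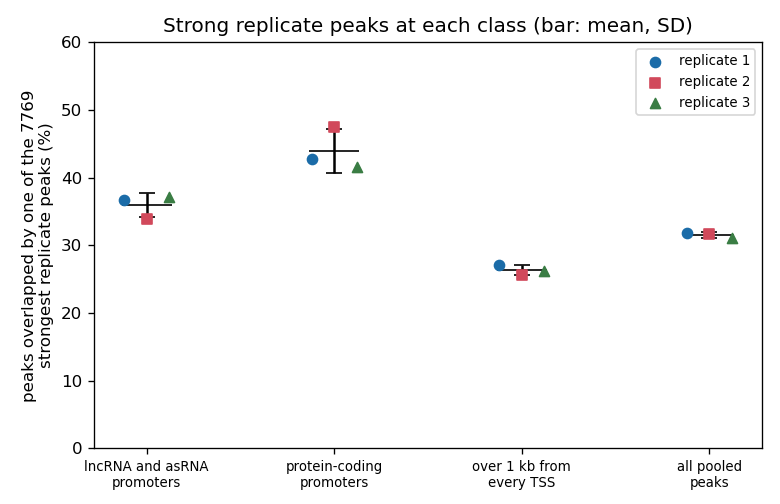
Percent of the peaks of each class that are overlapped by a strong peak of a replicate, as many of the highest in signal as the IDR list is long, with 1 point per replicate and the mean and SD over 3 replicates. Peaks at lncRNA and asRNA promoters (36.0 ± 1.75%) sit between those at protein-coding promoters (43.9 ± 3.19%) and those over 1000 bp from every TSS (26.3 ± 0.747%) in every replicate.

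Most of the peaks recurred. An overlapping peak was present in every replicate list for 305 of the 433 (70.4%), against 77.3% of protein-coding promoter peaks and 68.7% of all pooled peaks, and 3 had none in any replicate. The share near the background of 68.7% does not set these peaks apart. By replicate, 88.0%, 89.6% and 83.8% of them were overlapped. For the 121 on the IDR list, 118 were overlapped in every replicate and 90 were overlapped by a strong peak in every replicate. The same counts are not given for other IDR peaks, which are likewise the strongest of the pooled list. These 2 counts therefore do not set the class apart. A few IDR peaks differed widely between replicates, such as CR45643 at replicate ranks 5283, 4099 and 24749, CR32582 at 4554, 14284 and 3646, and CR44618 at 5176 and 2608 with no peak in replicate 3. Across the peaks matched in both lists of a pair, Spearman's rho between ranks was 0.85 for replicates 1 and 2 (n = 345), 0.85 for 1 and 3 (n = 325) and 0.81 for 2 and 3 (n = 337). These peaks share libraries and a control file, so the values are descriptions.

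Judged by position and not by overlap, a summit within 250 bp of the same TSS was found in every replicate for 252 of the 433 peaks (58.2%), against 3281 of 4979 at protein-coding promoters (65.9%). In replicates 1, 2 and 3 the share was 81.8%, 83.1% and 75.3% at lncRNA and asRNA promoters, against 85.2%, 91.8% and 77.8% at protein-coding promoters. It was lower at lncRNA and asRNA promoters in 3 of 3 replicates, a difference that was not tested. Matched by summits no more than 100 bp apart, 44.8% of the lncRNA and asRNA promoter peaks recurred in every replicate, against 49.5% at protein-coding promoters.

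Summits lay upstream of the noncoding TSS more often than downstream. Of the 433, 265 (61.2%) were upstream, with the direction of transcription taken into account, against 3163 of 4979 (63.5%) at protein-coding promoters. Applied to each replicate's own list, the rule gave 414, 424 and 429 peaks with 61.8%, 62.3% and 56.6% upstream, a mean of 60.2 ± 3.13% (SD, n = 3). The IDR peaks were upstream in 93 of 121 cases (76.9%) and the others in 172 of 312 (55.1%). More than 100 bp upstream stood 62 of the 121 IDR peaks (51.2%), close to the 51.1% of IDR peaks at protein-coding promoters. For peaks not on the IDR list it was 34.0% at lncRNA and asRNA promoters and 30.5% at protein-coding promoters. The excess of upstream IDR peaks was thus not particular to noncoding starts. The median distance to the TSS was 127 bp at lncRNA and asRNA promoters and 105 bp at protein-coding promoters. The rule capped this distance at 250 bp, and an even spread would put the median near the middle of that range. The 127 bp therefore shows no gathering of summits close to the noncoding TSS. For the 312 peaks not on the IDR list, each 50 bp bin held 6.73 to 12.8% of summits. Of the 121 IDR summits, 17.4% were in the bin farthest upstream. The noncoding TSSs are those of the annotation, and errors in their positions would add to these distances.

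**Figure D3:**
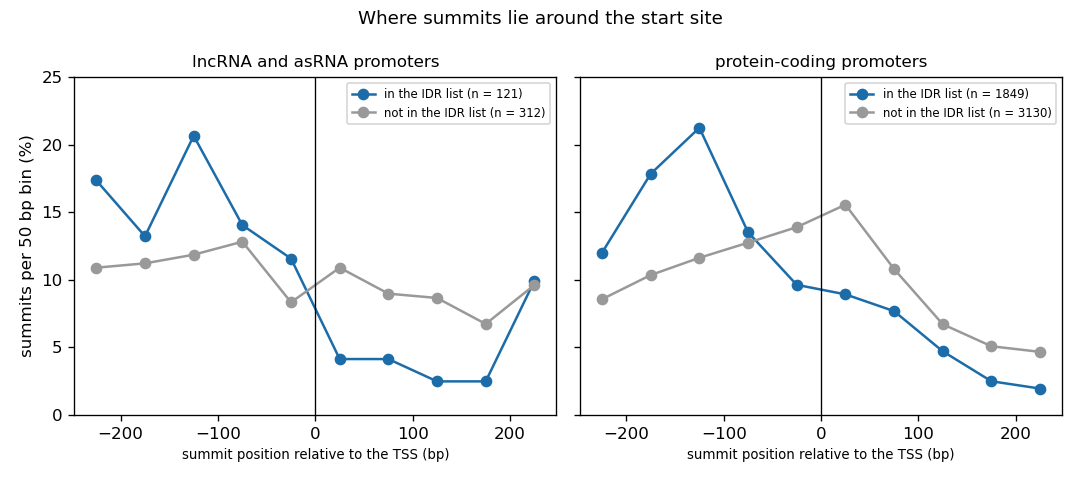
Summits in 50 bp bins by position relative to the nearest TSS of their class (bp, negative upstream), as percent of each set, for IDR peaks and peaks not on the IDR list. At lncRNA and asRNA promoters (left) 76.9% of IDR summits and 55.1% of the others are upstream, and the IDR curve falls at the TSS.

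Among the 433, 4 contrasts between classes were then made, all added after the data were seen. In each replicate the upstream peaks at lncRNA and asRNA promoters were overlapped by a strong peak more often than the downstream ones. Strong peaks of replicates 1, 2 and 3 overlapped 41.1%, 38.1% and 40.8% of the 265 upstream peaks, against 29.8%, 27.4% and 31.5% of the 168 downstream peaks. The difference was 10.4 ± 1.11 percentage points (SD, n = 3, exact sign-flip permutation test, p = 0.25, adjusted p = 0.35), with the same direction in 3 of 3 replicates. It was 5.06 points where the window around the TSS was 500 bp. The contrast is not given for protein-coding promoters, whose IDR peaks also stood upstream more often than their other peaks.

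The same held in each replicate for peaks outside annotated exons of noncoding genes, set against those inside them. Strong replicate peaks overlapped 41.5 ± 1.88% of 262 peaks outside such exons, against 27.5 ± 1.55% of 171 inside, a difference of 14.0 ± 0.368 points (SD, n = 3, exact sign-flip permutation test, p = 0.25, adjusted p = 0.35). On the IDR list were 91 peaks outside (34.7%) and 30 inside (17.5%). This class overlaps the upstream class, since exons begin at the TSS. The summit windows also differed in base composition, at a mean of 65.5% A or T outside exons and 58.5% inside, whose part in the result was not tested. With windows of 100 and 500 bp around the TSS the difference was 4.69 and 7.17 points.

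Distance to a protein-coding TSS was a further axis. Of the 433 peaks, 23.3% had a protein-coding TSS within 1000 bp. Strong replicate peaks overlapped 47.9 ± 2.06% of these, against 32.3 ± 1.66% of the 332 farther ones, a difference of 15.5 ± 0.490 points (SD, n = 3, exact sign-flip permutation test, p = 0.25, adjusted p = 0.35). When a replicate peak had to have its summit within 100 bp of the pooled summit, the difference was 3.53 points, and with a window of 500 bp around the TSS it was 7.39 points. A replicate peak that overlaps one of these can have its summit at the neighbouring promoter, so the share by overlap is not that of the noncoding start alone. By the pooled summits themselves, 31 of the nearer peaks (30.7%) and 90 of the 332 farther ones (27.1%) were on the IDR list. The 64 peaks at TSSs head to head with a protein-coding TSS within 1000 bp, a layout that shares a regulatory region between a pair of genes, had 19 on the IDR list (29.7%), against 102 of 369 (27.6%) for the rest. A further 120 pooled peaks within 250 bp of a noncoding TSS had been left out because they also lay within 250 bp of a protein-coding TSS, and 38 of these (31.7%) were IDR peaks.

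**Figure D4:**
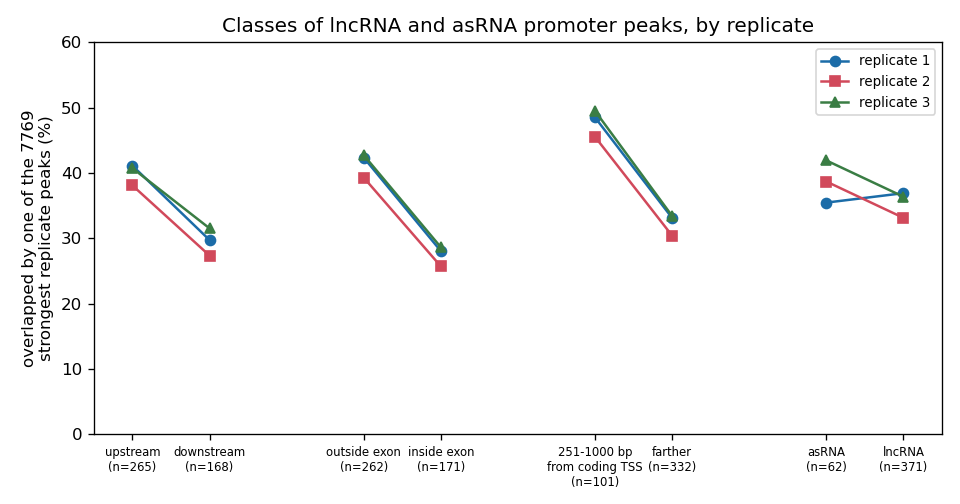
Percent of lncRNA and asRNA promoter peaks overlapped by a strong peak of a replicate, as many of the highest in signal as the IDR list is long, in 4 pairs of classes, with 1 line per replicate. All 3 lines fall in the first 3 pairs (mean differences of 10.4, 14.0 and 15.5 points), while in the asRNA and lncRNA pair the lines cross.

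By RNA class the replicates did not give 1 direction. At asRNA promoters 35.5%, 38.7% and 41.9% of peaks were overlapped by a strong replicate peak, against 36.9%, 33.2% and 36.4% at lncRNA promoters, a difference of 3.22 ± 4.04 points (SD, n = 3, exact sign-flip permutation test, p = 0.5, adjusted p = 0.5). With a window of 100 bp around the TSS it was 8.25 points, and the sign turned under 3 alternatives, to -0.891 points with a window of 500 bp, -5.87 points over 1000 bp from every protein-coding TSS, and -0.522 points with summits matched within 100 bp. Of the 62 peaks at asRNA promoters, 44 had their TSS inside a protein-coding gene on the opposite strand. Another 16 had it outside all protein-coding genes and 2 inside one on the same strand. Of the 371 peaks at lncRNA promoters, 270 had it outside protein-coding genes, 76 antisense inside one and 25 inside one on the same strand. On the IDR list were 84 of the 286 with a TSS outside protein-coding genes (29.4%), 32 of the 120 antisense ones (26.7%) and 5 of the 27 on the same strand (18.5%), the last group holding CR34335, the strongest of all.

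By chromosome arm, the 81 peaks on 2R had the highest share on the IDR list, 29 (35.8%), and the 88 on 3R the lowest, 21 (23.9%). Strong replicate peaks overlapped 46.1 ± 0.713% of those on 2R, 40.0 ± 17.6% on chromosome 4, 39.5 ± 2.57% on 2L, 34.5 ± 2.37% on 3R, 29.5 ± 1.11% on X and 28.3 ± 4.63% on 3L (SD, n = 3), so the arm with the lowest share on the IDR list was not the lowest here. These arm values are given with no test and without those of other peaks on the same arms. A difference that holds for all peaks of an arm therefore cannot be told apart.

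The summits at lncRNA and asRNA promoters were richer in A and T than their flanks. Within 50 bp of the pooled summit the mean was 62.7% A or T, against 57.7% in windows of the same length centred 200 bp to either side. At protein-coding promoters the summit had 61.7% and the flanks 59.1%, at peaks over 1000 bp from every TSS 63.8% and 58.6%, and over all pooled peaks 63.5% and 58.9%. The rise of 4.98 points at lncRNA and asRNA promoters was thus near that of all pooled peaks, 4.63 points. For the IDR peaks at lncRNA and asRNA promoters the values were 68.6% at the summit and 56.6% in the flanks, and for the rest 60.5% and 58.2%. In 4 groups of near equal size by pooled rank, strongest to weakest, the summits had 68.0%, 62.9%, 61.1% and 58.9% A or T.

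At replicate summits, A or T content was 63.5%, 63.7% and 62.7% at lncRNA and asRNA promoters, against 62.7%, 62.5% and 62.9% at protein-coding promoters. The difference of 0.610 ± 0.688 points (SD, n = 3) was within its spread and had the opposite sign in replicate 3 (exact sign-flip permutation test, p = 0.5, adjusted p = 0.5). It was of 1 sign in all 3 replicates under 2 alternatives, at 1.91 points with a window of 100 bp around the TSS and 1.39 points with summits matched within 100 bp (exact sign-flip permutation test, p = 0.25 each). A run of at least 15 bases of A or T stood in 61 of the 433 summit windows (14.1%), against 6.35% of their flanks. For the IDR peaks it was 23 of 121, against 4.55% of the flanks. Such a run stood in 17.1% of protein-coding promoter summits and in 16.8% of all pooled summits (9.57% of their flanks). The 433 thus had the lower share both at the summit and in the flanks, a difference that was not tested. The median longest run at the summit was 9 bases for the 433 and for all pooled peaks.

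**Figure D5:**
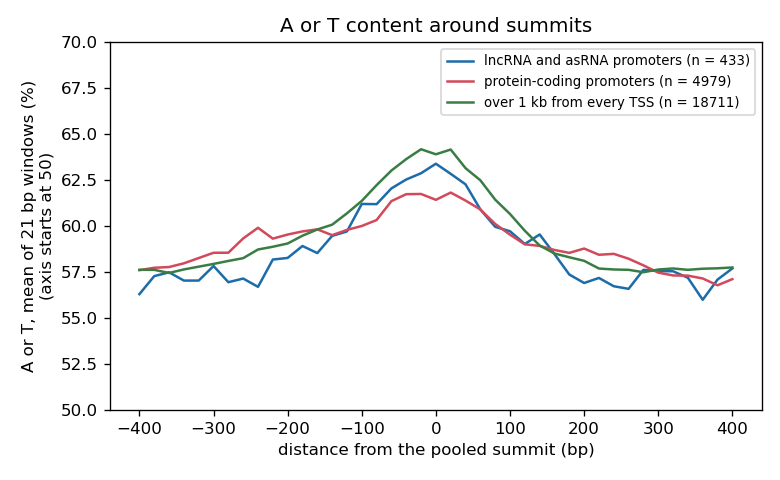
Mean A or T content in 21 bp windows around the pooled summit (bp, in the orientation of the genome; the axis starts at 50%) for lncRNA and asRNA promoter peaks, protein-coding promoter peaks and peaks over 1000 bp from every TSS. All 3 curves are highest near the summit, and that of the lncRNA and asRNA promoters is the least smooth, with 433 peaks against 4979 and 18711.

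Of 7 short motifs searched on both strands within 50 bp of the summit, 2 that mark housekeeping promoters of protein-coding genes were each in 1 of the lncRNA and asRNA promoter peaks, a rarity also seen at peaks over 1000 bp from every TSS. The DRE, TATCGATA, bound by DREF, was in 1 of 433 (0.231%), against 143 of 4979 protein-coding promoter summits (2.87%), 0.273% of peaks over 1000 bp from every TSS and 0.727% of all pooled summits. The core of Motif 1, GGTCACAC, was in 1 of 433 (0.231%), against 112 of 4979 (2.25%), 0.160% of peaks over 1000 bp from every TSS and 0.500% of all pooled summits. At replicate summits the DRE was in 0.184 ± 0.318% at lncRNA and asRNA promoters and 2.70 ± 0.297% at protein-coding promoters, and the Motif 1 core in 0.437 ± 0.291% and 1.85 ± 0.534% (SD, n = 3). Neither was found at any of the 121 IDR summits. A rough limit of 3 in 121 would be 2.48%, which is not a confidence interval. It lies close to the 2.87% and 2.25% at protein-coding promoter summits, so the absence does not separate the classes. The shares at protein-coding IDR summits are not given. These words are also rarer around noncoding starts as such. Within 250 bp of 1 TSS a gene, the DRE stood at 1.80% of 2447 lncRNA and asRNA genes against 9.90% of protein-coding genes, and at 2.78% against 14.2% of those with a pooled summit. For the Motif 1 core the shares were 1.63% of lncRNA and asRNA genes and 8.47% of protein-coding genes, and 2.99% and 12.1% of those with a pooled summit.

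The other words differed less between the classes of peaks. The TATA box TATAAA was in 84 of 433 summit windows (19.4%) and 12.1% of their flanks, against 18.3% of protein-coding promoter summits and 20.3% of all pooled summits. It was in 32 of the 121 IDR summits (26.4%) and 10.7% of their flanks, beside the higher A/T content of those windows. The word AAATATAT, which can overlap TATAAA, was in 21 of 433 (4.85%), against 5.52% at protein-coding promoters and 5.79% of all pooled summits. GAGAG, the core of the GAGA factor site, was in 52 of 433, against 13.0% of protein-coding promoter summits and 11.6% of all pooled summits. The E-box CANNTG was in 33.7% of the summits and 42.3% of their flanks, against 34.7% of protein-coding promoter summits and 36.4% of all pooled summits. The Zelda word CAGGTAG was in 3 of 433 (0.693%), against 0.362% and 0.420%.

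Counted by gene, 468 of 2447 lncRNA and asRNA genes (19.1%, 95% Wilson interval 17.6 to 20.7%) had a pooled summit within 250 bp of a TSS, against 4317 of 13945 protein-coding genes (31.0%) and 27.9% of genes of all classes. The share was 19.7% of 1944 lncRNA genes and 17.1% of 503 asRNA genes. Noncoding genes have fewer annotated starts, 1.07 a gene against 1.41, and counted by TSS position 496 of 2609 noncoding starts had a summit, against 5643 of 19607 protein-coding ones (28.8%). Of the genes with a summit, 153 of 468 lncRNA and asRNA genes (32.7%) had one on the IDR list, against 2136 of 4317 protein-coding genes (49.5%). The 433 peaks had 379 nearest genes, of which 50 had several peaks and CR43334, CR43650, CR44161 and flam had 3 each. A further 84 of the 468 genes had a summit but no peak among the 433.

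Chromosome 4, a small and largely heterochromatic chromosome, stood apart in these counts. There 14 of 24 lncRNA and asRNA genes (58.3%, 95% Wilson interval 38.8 to 75.5%) had a pooled summit, against 64 of 80 protein-coding genes (80.0%). On the other arms the share was 16.2 to 23.1% of lncRNA and asRNA genes, against 28.9 to 34.0% of protein-coding genes. Of the 15 peaks at noncoding promoters of chromosome 4, 4 were on the IDR list (26.7%), and their median pooled rank was 14063, against 14330 for all 433. Strong peaks of replicates 1, 2 and 3 overlapped 46.7%, 20.0% and 53.3% of these 15, against 36.7%, 33.9% and 37.2% of all 433, higher in 2 of 3 replicates.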

How the data were processed

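ChIP-seq for D19A-eGFP was analysed in 3 biological replicates of 1 group. The authors deposited a peak list per replicate, a list called on the pooled libraries and an IDR list, in dm6 coordinates per the labels. For the aligner, peak caller, IDR threshold and the normalization of signal, nothing is stated in the labels or file headers. Each peak carries a signal value deposited by the authors with no stated normalization, used only to rank peaks within its list. The deposited −log10 q-value has a ceiling (4.20 in the pooled list) and was not used for ranking. The deposited summit offset gave the summit. Replicate and pooled lists hold 30000 peaks each whatever the depth, and with no read counts their depth is unknown.

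Gene models were those of Ensembl release 115, with all annotated transcripts; sequence came from the RefSeq assembly of the same release of the genome. A replicate peak matched a pooled peak where they shared at least 1 bp. Strong peaks were those of highest signal in a replicate, as many as the IDR list is long. Sequence was read within 50 bp of the summit and 200 bp to either side. Replicates were compared by an exact 2-sided sign-flip permutation test, adjusted by Benjamini-Hochberg over 7 tests, since peaks are not replicates. Python 3.11.15, numpy 2.4.6, pandas 2.3.3 and scipy 1.17.1 were used. The matching and annotation were tested on simulated data.

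Peaks named in the text were the 12 of highest pooled signal, the 6 highest at asRNA genes, those at RNAs with a name other than a CR number, the 2 weakest IDR peaks, 2 on each side of the 250 bp limit and those of a list of known lncRNAs; hosts of microRNAs, peaks with a wide spread between replicates and the first outside the IDR list were named after their values were seen. The rule for the 433 peaks and all lists were chosen with earlier results of these data known. Alternatives varied the window, the distance from protein-coding starts, the matching, the threshold, the gene models and the replicates.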

Additional observations from a re-analysis of the deposited data

How the results depend on the processing

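Shares that depend on a limit moved with it. The share on the IDR list was 7.62% with the strongest pooled peaks up to 0.25 of its length as threshold. The share overlapped in every replicate was 44.8% with summits matched within 100 bp, and 75.1 to 79.7% when 1 replicate was left out, since fewer lists must then hold the peak. The share with a summit at the same TSS in every replicate was 37.2% and 69.2% with windows of 100 and 500 bp, and 64.2 to 70.4% with 1 replicate left out. Upstream summits were 56.9% with the 100 bp window, and 59.2 to 62.0% with 1 replicate left out. The share of lncRNA and asRNA genes with a summit was 9.11% and 31.1% with windows of 100 and 500 bp, and 6.25% with IDR peaks only. The asRNA minus lncRNA difference turned to -0.891 points (500 bp window), -5.87 points (over 1000 bp from protein-coding starts) and -0.522 points (summits within 100 bp); the cause was not tested. Leaving out 1 replicate, the rank difference from protein-coding promoters was 1176 to 2139, that in strong peaks -9.81 to -5.19 points and that in A or T 0.327 to 0.992 points. With unmatched peaks placed last, an alternative added after the data were seen, the rank difference was 2727. RefSeq gene models, also added later, hold as many lncRNA and asRNA genes (2447) and gave the same 433 peaks. That alternative was therefore no separate check. With the window of 100 bp around the TSS the rank difference was 1028, the strong-peak difference -4.07 points (exact sign-flip permutation p = 0.5) and the A or T difference 1.91 points; the A or T difference was 1.39 points with summits matched within 100 bp. With strong peaks limited to 0.25 of their number, the differences were -1.35 points from protein-coding promoters, 5.58 upstream minus downstream, 3.91 outside minus inside exons and 2.67 near minus far from protein-coding starts. Differences were judged by direction alone, and shares by whether they stayed within 1 SD or the 95% interval of the value reported. By that measure 81 recomputed values stayed, those with RefSeq gene models among them, 14 moved and 3 reversed. Several differences that kept their direction changed in size, as given here and beside the results. No paired analysis of groups was possible because the study has 1 group; the sign-flip tests take differences between classes of peaks within each replicate. The depth is unknown, the control file is shared, and 3 replicates cannot give a p below 0.25 in this test.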
